A study of Mus musculus with 8 samples.

Results

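The miR-181 family is a group of microRNAs (miRNAs) that is abundant in brain and lymphoid tissue. Its members were read here in RISC-bound small RNAs (R-sRNAs) of mouse brain. The family was defined by name. A row of the read table belonged to it when its miRNA name was miR-181a-5p, miR-181b-5p, miR-181c-5p, miR-181d-5p, miR-181a-1-3p or miR-181c-3p. These 6 names covered 557 of the 47204 distinct sequences in the table and 6 of its 895 miRNA names. The family made up between 1.43% and 2.04% of the reads of a library.

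The brains came from mice that all carried the 5XFAD transgene, which is driven by the Thy1 promoter, mostly in neurons, and leads to amyloid plaques. The 4 het mice were 5XFADtg Rubicon+/- and the 4 ko mice were 5XFADtg Rubicon-/-, so that the het mice also lacked 1 copy of Rubicon, a gene that restrains autophagy. All were females on a mixed C57BL/6J and SJL background, aged 6 months where the comparison is described and 6 or 8 months in the methods, while the labels give no age. Cortex and hippocampus were lysed together, Argonaute proteins were pulled down with a GW182 peptide, and the small RNAs they held were sequenced (Ago-RP-Seq). Each library is taken as 1 mouse. The methods count 4 mice per genotype, other parts of the paper count fewer, and the labels name no mouse. A library shows what the RISC of all cells of cortex and hippocampus held together, and neither free miRNA nor a single cell type.

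A miRNA is cut from a hairpin whose 2 arms give the 5p and the 3p strand. One of them usually stays in the Argonaute protein as the guide, while the other, the passenger strand, is mostly lost. Positions 2 to 8 of the guide form the seed, which pairs with target mRNAs, so guides with the same seed have largely shared targets. The miR-181 guides are known for tuning T cell receptor signalling and, in neurons and glia, for acting on synaptic, apoptotic and mitochondrial genes.

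The mature sequences of the 6 members are given from RefSeq (GRCm38.p6), with the seed in capitals, because the family is defined by what these strands share and where they part. The prefix mmu, for mouse, is left out in the rest of the text.
mmu-miR-181a-5p: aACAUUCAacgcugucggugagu
mmu-miR-181b-5p: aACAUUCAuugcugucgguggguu
mmu-miR-181c-5p: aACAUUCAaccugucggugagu
mmu-miR-181d-5p: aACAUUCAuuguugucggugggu
mmu-miR-181a-1-3p: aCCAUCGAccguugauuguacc
mmu-miR-181c-3p: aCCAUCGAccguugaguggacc
All 4 guides of the 5p arm had the same seed, and both 3p strands shared another. Counted from 1 at the 5′ end, miR-181a-5p and miR-181b-5p differed by A9U, C10U and A21G and by the longer 3′ end of miR-181b-5p. miR-181b-5p and miR-181d-5p differed by C12U and by the extra last base of miR-181b-5p. miR-181c-5p was 1 base shorter than miR-181a-5p and lay at an edit distance of 1 from it. These differences all lie 3′ of the seed.

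The 6 strands come from 6 hairpins at 3 places in the genome (GRCm38). Mir181a-1 and Mir181b-1 lie close together on the plus strand of chromosome 1, where the miR-181a-5p strand spans chr1:137966468-137966490 and the miR-181b-5p strand chr1:137966650-137966673. Both are inside the span of the noncoding gene Gm4258, and the miR-181b-5p strand also overlaps an exon of the lincRNA A430106G13Rik. A lincRNA on the opposite strand, Gm26936, spans both. Mir181a-2 and Mir181b-2 give the same mature sequences from chr2:38852741-38852763 and chr2:38853845-38853868 on the plus strand, opposite to an intron of Nr6a1, which encodes an orphan nuclear receptor. Mir181c and Mir181d lie on the minus strand of chromosome 8, with the 5p strands at chr8:84178924-84178945 and chr8:84178759-84178781, in an intron of Nanos3, which encodes an RNA-binding protein of germ cells. Reads of miR-181a-5p or miR-181b-5p cannot be assigned to 1 of the 2 hairpins that encode each of them.

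Depth ranged from 509839 to 19878054 reads per library, and the only 2 libraries of over 5000000 reads, ko replicates 1 and 2, were of 1 genotype. Values are CPM, reads per 1000000 reads of the library, and 3 reads, taken as the smallest level that can be read, were 5.79 CPM in the shallowest library and 0.151 CPM in the deepest. The neuronal miRNAs of a marker list (6 of 6 in the table, among them miR-124-3p and miR-9-5p) summed to between 174688 and 283392 CPM, as fits a brain label, with 0 of 6 called. The only marker list with called members was that of epithelium and choroid plexus, where 3 of 7 tested miRNAs were lower in ko. The list summed to 5652 to 11512 CPM in het and 2889 to 6210 CPM in ko, with miR-211-5p at 0 in a library. Its called members were miR-200a-3p, miR-200b-3p and miR-429-3p. In the same list miR-204-5p and miR-211-5p were not called, with log2 fold changes of -0.13 and 2.88 for ko against het. The part of this list in the values below was not tested. The oligodendrocyte list had 0 of 3 called, at 9473 to 15455 CPM (het) and 6148 to 9935 CPM (ko), and the red blood cell list 0 of 3, at 1902 to 3384 CPM in het and 907.8 to 2367 CPM in ko.

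The family was dominated by miR-181a-5p. Its level was 11435, 12255, 12899 and 11525 CPM in het replicates 1 to 4 and 11083, 9331, 10063 and 14133 CPM in ko replicates 1 to 4. It ranked 22 by mean level among all miRNA names. The ko libraries held both the lowest and the highest of these values, and enclosed the whole het range. In tissue of mixed cells, fewer cells of a type and less RNA per cell cannot be told apart.

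miR-181b-5p, the partner of miR-181a-5p in both clusters, was at 3728, 3655, 4360 and 3981 CPM in het and 3586, 3507, 3690 and 3951 CPM in ko, which gave it rank 48. The highest library exceeded the lowest by only 1.24-fold. Its coefficient of variation over the 8 libraries was 7.29%, and 0% of the 278 miRNAs whose mean reached 100 CPM had a smaller one. miR-181a-5p followed at 13.2%, with 2.88% of those miRNAs below it, while the median miRNA stood at 28.9%.

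The guides from chromosome 8 were scarcer. miR-181c-5p was at 810.8, 872.1, 983.1 and 1095 CPM in het and 759.2, 662.2, 542.2 and 1214 CPM in ko (rank 107). miR-181d-5p was at 635.2, 545.4, 573.4 and 496.0 CPM in het and 493.7, 428.1, 319.2 and 525.2 CPM in ko (rank 148). Both were lowest in ko replicate 3, and both genotypes overlapped for each. They also varied more than their relatives from chromosomes 1 and 2, with coefficients of variation of 25.7% for miR-181c-5p and 19.1% for miR-181d-5p.

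The 3p strands were the least abundant members. miR-181a-1-3p, which unlike its 5p partner comes from the chromosome 1 hairpin alone, was at 347.5, 153.4, 248.1 and 308.2 CPM in het and 225.1, 271.2, 342.4 and 269.4 CPM in ko (rank 204). miR-181c-3p was at 125.5, 55.0, 111.4 and 83.7 CPM in het and 82.3, 71.8, 63.2 and 53.9 CPM in ko (rank 298). The smallest number of reads of miR-181c-3p in a library was 55, and that of miR-181a-5p was 5923, in the shallowest library. Het replicate 2 was the lowest het library for both strands.

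**Figure D1:**
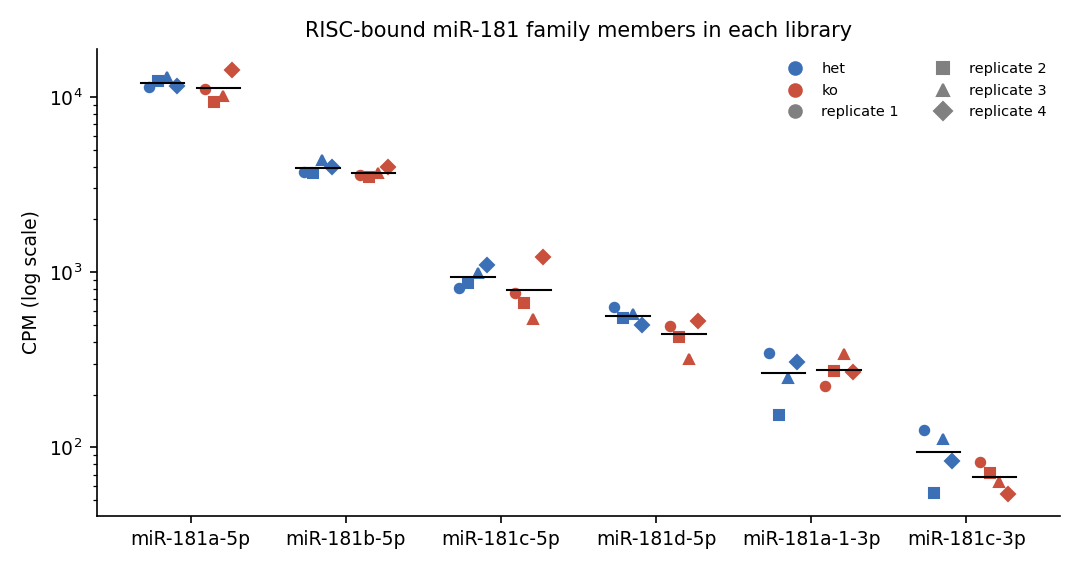
Level of each member in each library, in CPM on a log scale, with het in blue, ko in red, a symbol for each replicate number and a black line at the mean of each genotype (n = 4). The levels fall from miR-181a-5p at 9331 to 14133 CPM down to miR-181c-3p at 53.9 to 125.5 CPM, and the genotypes overlap in every member.

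The order of levels was the same in nearly every library. miR-181a-5p exceeded miR-181b-5p 3.03-fold on average and miR-181b-5p exceeded miR-181c-5p 4.51-fold, each in 8 of 8 libraries. The step from miR-181c-5p to miR-181d-5p was 1.71-fold, again in 8 of 8 libraries. The step from miR-181d-5p to miR-181a-1-3p was 1.87-fold in 7 of 8 libraries, with the reverse in ko replicate 3. miR-181a-1-3p exceeded miR-181c-3p 3.40-fold in 8 of 8 libraries. In exact two-sided sign-flip tests over the 8 libraries, 14 of the 15 pairs of members had an adjusted p of 0.00837, with the smallest unadjusted p the design allows (0.00781), and miR-181d-5p against miR-181a-1-3p had an adjusted p of 0.0156. Within 4 libraries of 1 genotype this test cannot go below a p of 0.125.

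For 2 hairpins both arms are members. miR-181a-1-3p stood at 1.25% to 3.40% of miR-181a-5p, a guide that 2 hairpins supply. miR-181c-3p stood at 4.44% to 15.5% of miR-181c-5p, which 1 hairpin supplies. These ranges did not overlap, but the first is not per hairpin, so the retention of the 2 passenger strands cannot be compared from them. The other 3p arms were near the floor, except miR-181a-2-3p, from the chromosome 2 hairpin, which was at 20.9 to 55.4 CPM. miR-181b-1-3p was at 0 to 9.65 CPM and was seen in 6 libraries, miR-181d-3p was at 1.93 to 7.31 CPM, and miR-181b-2-3p was seen in ko replicate 2 alone, at 1.16 CPM.

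To ask whether the RISC of ko brains held more or less of any member, the miRNAs whose mean level was 10 CPM or more were compared between genotypes with limma on log2(CPM + 1). Of 463 miRNAs tested, 6 were called (1.3%), all of them lower in ko. Of the 6 members, 0 were called in either direction, 0 had an unadjusted p under 0.05 against 7.34% of all miRNAs, and 0 were without overlap between genotypes against 3.46% of all. edgeR and DESeq2 on the recovered reads called 4 and 9 miRNAs, 0 of them in the family, where 0 members had an unadjusted p under 0.05 by either tool.

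The log2 fold change of ko against het was -0.13 for miR-181a-5p (SE 0.21, 95% interval -0.59 to 0.33, adjusted p = 0.98 by limma). For miR-181b-5p it was -0.09 with an interval of -0.55 to 0.37. miR-181c-5p had -0.30 (-0.91 to 0.31) and miR-181d-5p -0.37 (-0.89 to 0.16, adjusted p = 0.796 by limma). The strand miR-181a-1-3p had 0.12 (-0.53 to 0.76) and miR-181c-3p -0.41 (-1.14 to 0.31). The median over the members was -0.21 and over all 463 miRNAs -0.09. Centring each library on its median miRNA moved the median of all to 0.13 and that of the members to 0.01, and turned the sign for miR-181a-5p (0.10) and miR-181b-5p (0.13), as edgeR and DESeq2 also did. No direction can therefore be given for these 2 guides. The other members kept their sign under centring, at -0.08 for miR-181c-5p, -0.15 for miR-181d-5p, 0.34 for miR-181a-1-3p and -0.19 for miR-181c-3p. Without het replicate 2, miR-181a-1-3p turned to -0.12. edgeR and DESeq2 gave -0.08 each for miR-181c-5p and -0.20 and -0.19 for miR-181d-5p.

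**Figure D2:**
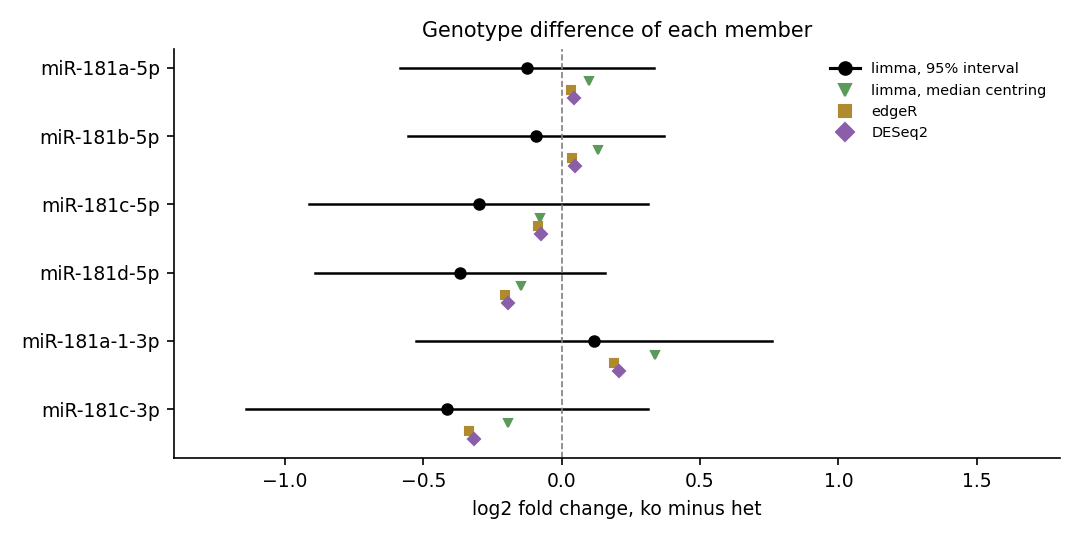
Log2 fold change of ko against het for each member. The black point and line give the limma estimate with its 95% interval, and coloured symbols give the estimate after median centring, by edgeR and by DESeq2. All 6 intervals include 0, and the symbols for miR-181a-5p and miR-181b-5p lie on the other side of 0 from the black points.

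Ratios within a library do not depend on how the rest of the library is scaled. miR-181b-5p stood at 27.95% to 37.6% of miR-181a-5p, miR-181c-5p at 5.39% to 9.50% and miR-181d-5p at 3.17% to 5.55%. miR-181d-5p, which shares a cluster with miR-181c-5p, stood at 43.3% to 78.3% of it. Of 6 log2 ratios compared between genotypes, none passed the exact two-sided permutation test over 70 splits, with an adjusted p of 0.83 for each (n = 4 each). The difference nearest to the threshold was that of miR-181d-5p over miR-181a-5p, which averaged -4.42 ± 0.17 for het and -4.67 ± 0.25 for ko on the log2 scale (± SD, n = 4 each, exact permutation p = 0.286 before adjustment). This difference of -0.24 became -0.14 without ko replicate 3, -0.16 without het replicate 1 and -0.44 without both libraries of over 5000000 reads. This design cannot give a p below 0.0286, and 1 ratio alone at that value would have an adjusted p of 0.171, so a difference in a single ratio could not have passed.

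Each guide was present as a set of isoforms, most of whose reads started at the same base and which ended at different ones. The most abundant reads are shown, with bases beyond the annotated 3′ end in capitals, since these ends are where the 4 guides differed in the RISC.
miR-181a-5p, 23 nt: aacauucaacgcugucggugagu
miR-181a-5p, 21 nt: aacauucaacgcugucgguga
miR-181a-5p, 22 nt: aacauucaacgcugucggugag
miR-181a-5p, 25 nt: aacauucaacgcugucggugaguUU
miR-181b-5p, 21 nt: aacauucauugcugucggugg
miR-181b-5p, 23 nt: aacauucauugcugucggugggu
miR-181b-5p, 24 nt: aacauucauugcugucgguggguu
miR-181c-5p, 22 nt: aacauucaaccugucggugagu
miR-181c-5p, 23 nt: aacauucaaccugucggugaguU
miR-181c-5p, 24 nt: aacauucaaccugucggugaguUU
miR-181d-5p, 21 nt: aacauucauuguugucggugg
miR-181d-5p, 23 nt: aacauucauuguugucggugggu
miR-181d-5p, 24 nt: aacauucauuguugucgguggguU
The full mature sequence was the leading read of miR-181a-5p, with 26.8% of its reads pooled by mean CPM, ahead of the 21 nt form with 19.2% and the 22 nt form with 15.2%. The full sequence averaged 3755 CPM over het and 2457 CPM over ko libraries, which overlapped, and it was not called between genotypes. In ko replicates 1 and 2 the 21 nt form exceeded it, with 2666 against 2615 CPM and 2048 against 1708 CPM. The 25 nt form held 9.0% and the 24 nt form 7.37%. For miR-181b-5p the 21 nt form led with 27.0%, and the full 24 nt sequence held 12%, behind the 23 nt form with 16.1%. The 20 nt and 22 nt forms of miR-181b-5p held 9.26% and 7.96%.

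miR-181c-5p was the reverse case. Its annotated 22 nt sequence held 17.4% of its reads, while the form with 1 more U held 30.7% and the form with 2 more held 38.8%. Forms of 21 and 20 nt held 3.58% and 2.19%. Reads that ended beyond the annotated 3′ end made up 68.4% ± 16.5 of het and 80.5% ± 3.9 of ko reads (± SD over n = 4 libraries), against 15.5% ± 6.8 and 21.1% ± 7.7 for miR-181a-5p and 27.5% ± 9.97 and 33.3% ± 11.2 for miR-181d-5p. For miR-181b-5p they made up 5.0% ± 2.8 and 5.6% ± 1.8. As the annotated sequences themselves are 22 to 24 nt long, these shares are not on the same footing. For miR-181a-5p the 2 added U were those of the hairpin. The hairpin of Mir181c was not among the sequences used here, so whether the U of miR-181c-5p came from the hairpin was not analysed. In miR-181d-5p the forms of 21, 23 and 24 nt were close, with 24.0%, 23.0% and 19.4%, and the 22 and 25 nt forms held 10.1% and 4.79%.

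Mean read length does not rest on the annotated end. Over the 8 libraries it was 23.1 ± 0.23 nt for miR-181c-5p, 22.6 ± 0.26 nt for miR-181d-5p, 22.2 ± 0.20 nt for miR-181a-5p and 21.9 ± 0.20 nt for miR-181b-5p (mean ± SD, n = 8). The guide with the shortest annotated sequence thus had the longest reads, and the one with the longest annotated sequence the shortest. All 6 pairs were ordered this way in 8 of 8 libraries, each with an adjusted p of 0.00781 in an exact two-sided sign-flip test, a comparison chosen after the values were seen. The smallest gap, between miR-181a-5p and miR-181b-5p, was 0.31 nt on average and 0.015 nt in the closest library.

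**Figure D3:**
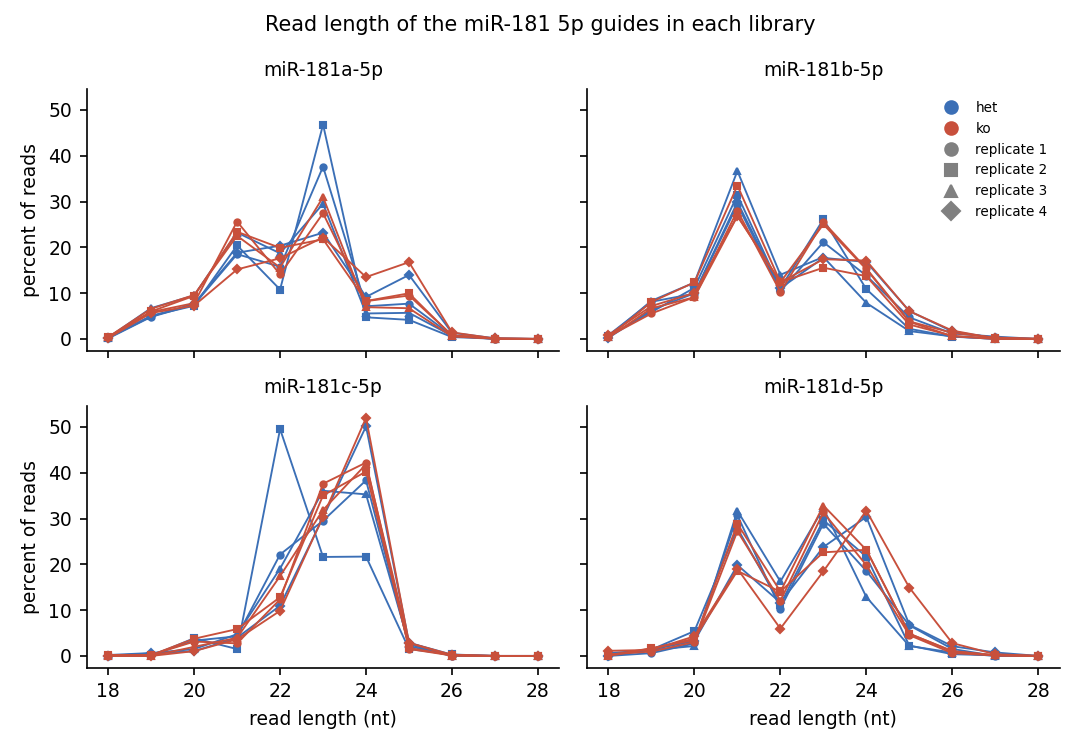
Percent of the reads of each 5p guide by read length in nt, with 1 line per library, het in blue and ko in red. miR-181b-5p peaks at 21 nt, and miR-181c-5p at 23 to 24 nt in all libraries but het replicate 2, which peaks at 22 nt.

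These ends varied widely among libraries of the same genotype. The full mature sequence made up 34.7%, 44.0%, 26.1% and 19.8% of miR-181a-5p reads in het and 23.6%, 18.3%, 27.7% and 19.2% in ko. For miR-181c-5p the same share was 21.0%, 47.7%, 18.2% and 9.36% in het and 10.4%, 11.7%, 15.2% and 8.56% in ko. Het replicate 2 was the highest library for both. Reads of miR-181c-5p beyond the annotated end reached 85.1% in ko replicate 4 and 83.9% in het replicate 4 and were at 45.2% in het replicate 2. Those of miR-181a-5p were at 32.1%, 25.0% and 9.29% in the same 3 libraries, which thus took the same order for both guides. Of 8 measures of read shape, the mean length and the share of reads with a shifted 5′ end for each of the 4 guides, none differed between genotypes in exact two-sided permutation tests (adjusted p = 0.686 to 1, n = 4 each), where 1 measure alone could not go below an adjusted p of 0.229. Within miR-181a-5p, reads starting 2 bases late made up 0.0652% to 0.129% in het and 0.188% to 0.219% in ko, and reads starting 3 bases late 0.129% to 0.219% and 0.263% to 0.675%. These were the only 2 of 130 shares of lengths, starts and ends over the 6 members without overlap (1.54%), chosen after their values were seen and given with no test.

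Among the guides, bases that the hairpin does not encode could be counted for miR-181a-5p, miR-181b-5p and miR-181d-5p. Of the 3p strands, miR-181a-1-3p had 1 to 3 such 3′ bases in 7.28% to 17.8% of its reads over the libraries. Reads with 1 to 3 untemplated 3′ bases made up 6.80%, 5.97%, 7.36% and 8.71% of miR-181a-5p in het and 7.76%, 7.39%, 7.81% and 7.90% in ko. For miR-181b-5p they made up 14.6%, 12.1%, 15.5% and 15.6% in het and 15.6%, 14.9%, 15.2% and 19.0% in ko. For miR-181d-5p they made up 19.8%, 9.33%, 14.02% and 19.2% in het and 14.3%, 15.4%, 15.5% and 28.9% in ko. miR-181a-5p was thus below both relatives in every library, with an adjusted p of 0.0117 for each in an exact two-sided sign-flip test over the 8 libraries, chosen after the values were seen. miR-181b-5p and miR-181d-5p differed by 1.74 percentage points with a range from -2.75 to 9.89 over libraries (exact sign-flip adjusted p = 0.313). Tails of only A averaged 4.80% ± 0.47 for miR-181a-5p, 10.1% ± 1.1 for miR-181b-5p and 8.34% ± 0.80 for miR-181d-5p (mean ± SD, n = 8). Tails of only U averaged 1.96% ± 0.39, 2.93% ± 0.52 and 6.04% ± 3.7. In ko replicate 4, U tails of miR-181d-5p exceeded A tails, at 13.99% against 8.96%. An added base that happens to match the hairpin is counted as encoded.

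**Figure D4:**
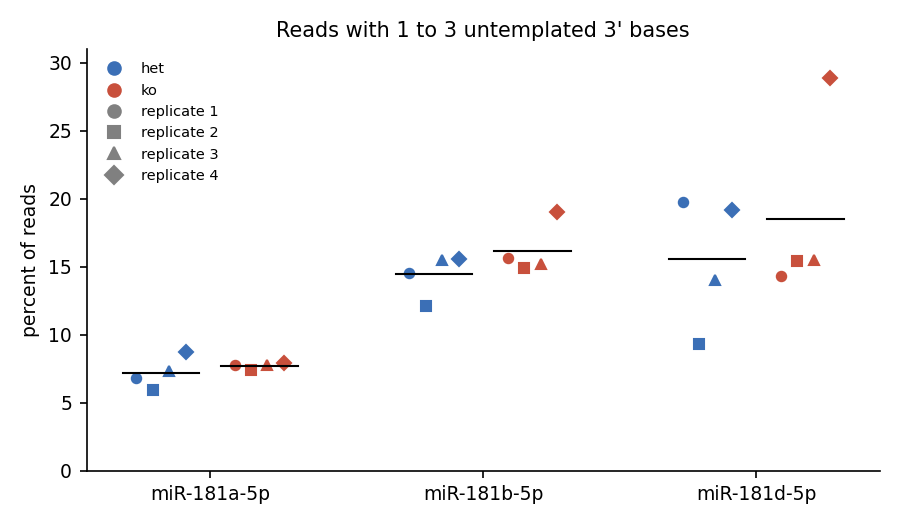
Percent of reads that end in 1 to 3 bases not encoded by the hairpin, for the 3 guides whose hairpin sequence was at hand, by library, with black lines at the genotype means (n = 4). miR-181a-5p lies between 5.97% and 8.71%, below every value of the other 2 guides.

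Among single sequences of the family, 68 reached a mean of 10 CPM and were tested together with all others. Of the 3299 sequences tested, 16 were called (0.485%), all lower in ko, and 0 of the 68 were among them. 2 of the 68 had an unadjusted p under 0.05, against 5.3% of all sequences, and 0 of the 68 were without overlap between genotypes, against 3% of all. The smallest p belonged to the full mature miR-181c-5p sequence, at 169.9, 416.1, 179.4 and 102.5 CPM in het and 78.8, 77.2, 82.5 and 103.9 CPM in ko. Its log2 fold change was -1.15 (SE 0.39, adjusted p = 0.629 by limma), with het replicate 4 within the ko range and het replicate 2 far above the rest. The longer forms of the same guide, with 1 or 2 more U, had log2 fold changes of -0.09 and 0.02.

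The next in this order were 2 forms of miR-181a-5p, the first shifted by 1 base at its 5′ end and the second with an untemplated A in capitals.
miR-181a-5p, start shifted by 1: acauucaacgcugucggugagu
miR-181a-5p, 22 nt with A: aacauucaacgcugucggugaA
They had log2 fold changes of -0.88 (adjusted p = 0.931) and -0.69 (adjusted p = 0.970 by limma). In the other direction the smallest p-values belonged to the following forms of miR-181a-5p, all with a shifted start.
miR-181a-5p, start shifted by 1, 24 nt: acauucaacgcugucggugaguUU
miR-181a-5p, start shifted by 1, 23 nt: acauucaacgcugucggugaguU
miR-181a-5p, start shifted by 3: auucaacgcugucggugag
Their log2 fold changes were 0.90, 0.68 and 1.28, each with an adjusted p of 0.973 by limma. The shifted form without added U was at 13.7 to 67.6 CPM and the form with 2 added U at 7.72 to 50.9 CPM. The form shifted by 3 ranged from 1.93 CPM, which is a single read of het replicate 1, to 33.3 CPM in ko replicate 1.

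The 5′ end sets the seed, and the study scored each 6mer seed (positions 2 to 7) by how well mouse cells survived an siRNA built around it, in percent. A high score marks a seed that cells tolerate, and a low score one more likely to kill by Death Induced by Survival gene Elimination (DISE). The 6mer seed of the 4 guides, ACAUUC, had a viability of 86.7, above 95.04% of the 3427 seeds in the table, and was the 13th most abundant seed. It covered 97.8% of miR-181a-5p, 97.2% of miR-181b-5p, 98.7% of miR-181c-5p and 98.3% of miR-181d-5p reads. A start 1 base later gave the seed CAUUCA, with a viability of 61.8, in 1.19%, 1.87%, 0.559% and 1.23% of their reads. Only 2.18% ± 0.35 of miR-181a-5p reads were off its main seed, against 7.14% ± 0.46 for the pooled reads of all miRNAs outside the family (mean ± SD, n = 8). The share was lower in 8 of 8 libraries (exact two-sided sign-flip p = 0.00781). Reads of miR-181a-5p were also 0.48 nt longer than the same pool on average, again in 8 of 8 libraries (exact sign-flip p = 0.00781). Abundant miRNAs weigh most in this pool, and miR-181a-5p was not ranked against single miRNAs.

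The 3p strands had the seed CCAUCG with a viability of 68.4. In miR-181a-1-3p it covered 99.0% of reads. In miR-181c-3p it covered 87.6%, while 12.3% started 1 base earlier and had the seed ACCAUC with a viability of 38.9. The share of miR-181c-3p reads with this earlier start was 23.1%, 6.25%, 6.97% and 12.1% in het and 6.03%, 8.88%, 11.6% and 20.0% in ko. Both genotypes covered about the same range, and the highest values came from the 2 shallowest libraries. At 3.44 to 29.0 CPM this was the main low-viability seed of the family, where reads with a seed viability under 40 made up 0.0196% to 0.181% of all family reads, against 10.5% to 14.4% of the table.

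The family was therefore small among all R-sRNAs and larger among those with a seed viability over 80, a cutoff set here. Such reads made up 7.56% to 9.70% of the table and, given the shared seed, 94.9% to 97.3% of the family. The family held 1.74%, 1.76%, 1.93% and 1.77% of all reads in het and 1.63%, 1.43%, 1.51% and 2.04% in ko. Of the reads with a seed viability over 80, it held 17.8%, 17.7%, 20.7% and 18.5% in het and 20.5%, 16.8%, 17.5% and 21.3% in ko. By mean CPM, miR-181a-5p alone held 13.0% of such reads, more than any other miRNA name. It was followed by miR-101a-3p with 7.12%, miR-434-3p with 6.67% and miR-21a-5p with 6.28%, and miR-181b-5p came sixth with 4.26%. Reads of the family averaged a seed viability of 85.9 ± 0.23 (het) and 85.8 ± 0.10 (ko), while all other reads averaged 56.0 ± 0.49 and 55.8 ± 1.0 (± SD over n = 4 libraries). The genotypes overlapped in all of these measures. Removing the family changed the mean seed viability of the table from between 55.5 and 57.8 to between 55.0 and 57.2.

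**Figure D5:**
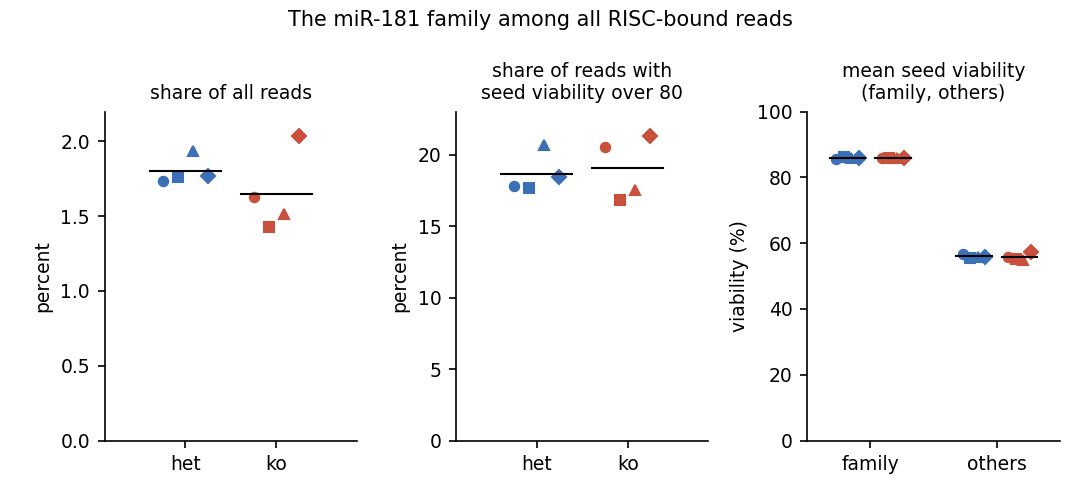
Share of the family among all reads and among reads with a seed viability over 80, in percent, and the mean seed viability of the family and of all other reads, in percent, by library (het blue, ko red, black lines at genotype means, n = 4). The family holds about 1.4% to 2.0% of all reads but 16.8% to 21.3% of those over 80.

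Almost no other small RNA shared the guides' seed. Family members made up 98.7% to 99.1% of all reads with ACAUUC, and reads without a mature miRNA name 0.886% to 1.19%. The only other miRNA name was miR-543-3p with a mean of 14.7 CPM. For CCAUCG, the family held 99.5% to 100% of reads, beside miR-136-3p with a mean of 0.391 CPM.

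The constancy of ratios from library to library was measured as the SD of the log2 ratio over the 8 libraries, among miRNAs whose mean reached 100 CPM, where a small SD means a constant ratio. miR-181b-5p had an SD of 0.14 to miR-181a-5p, less than any of the 273 miRNAs outside the family. Of these, the closest were miR-666-3p with 0.20, miR-30a-3p with 0.21 and miR-411-3p with 0.22, where the median was 0.49. miR-181c-5p had an SD of 0.24 to miR-181a-5p, and those closest to it were miR-341-3p with 0.22, miR-101b-3p with 0.22 and miR-101a-3p with 0.25, where the median was 0.60. miR-181d-5p had an SD of 0.28 to miR-181c-5p, its neighbour on chromosome 8, and 0.24 to miR-181a-5p from other chromosomes. The 3p strands had larger values to their own guides, with 0.48 for miR-181a-1-3p to miR-181a-5p and 0.58 for miR-181c-3p to miR-181c-5p. These values describe 8 libraries that share their scaling, and an SD of a ratio is small also where both miRNAs vary little.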

How the data were processed

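Small RNAs bound to Argonaute proteins were sequenced from mouse brains in 8 libraries, 4 per genotype, with groups and replicate numbers taken from the sample titles. The labels give 250 mg of tissue per sample, and the methods a lower mass. The authors trimmed reads (the submitters' processing notes name Trim Galore), removed rare reads, matched the rest to lists of small RNAs with the SPOROS pipeline, and deposited 1 line per sequence in CPM, that is scaled to 1000000 reads per library. The genome build is not given in the sources used here. A seed's viability score, also deposited, is a mean that the authors took over mouse cell lines in an earlier screen. The authors' total column was not used.

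CPM were summed by miRNA name. Dividing by the value of 1 read gave whole reads for 100% of values (within 0.001 CPM and a relative 1e-05), from which depth was taken. At these depths the spread between libraries, more than counting error, limits the comparisons of the guides, while rare forms are limited by both. Differences between mice and between library preparations cannot be told apart here. Reads carry no molecular identifiers, so floors cover counting error only.

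limma 3.58.1 in R 4.3.3 (eBayes, trend and robust on) was run on log2(CPM + 1) of all miRNAs or all sequences whose mean reached 10 CPM, with Benjamini-Hochberg adjustment and a threshold of 0.05. Fold changes are on that scale and understate those of scarce reads. edgeR 4.0.16 (quasi-likelihood, TMM) and DESeq2 1.42.0 on recovered reads were alternatives. Ratios and shapes were compared by exact permutation over 70 splits, and members within libraries by sign flips over 256 patterns. The fits were also run on simulated data, with no outcome given or used here. Python 3.11.15, numpy 2.4.6, scipy 1.17.1, pandas 2.3.3, edlib 1.3.9.post1 and matplotlib 3.10.9 were used. Mature and hairpin sequences came from RefSeq (GRCm38.p6), and overlapping genes from GENCODE M21 (GRCm38). Hairpins served to tell templated from untemplated 3′ ends.

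The members and lists were chosen with earlier results of these data known. Named were the 6 members and the other 4 arms of their hairpins, the leading read of each member and the next 4 of each 5p guide, the 3 family reads with the smallest p in each direction, and the 3 miRNAs of at least 100 CPM closest to miR-181a-5p and to miR-181c-5p. Other miRNAs that share a seed with the family or lead the reads of high seed viability were named after their values were seen. Alternatives were other pseudocounts and filters, median centring, the replicate block, edgeR and DESeq2, leaving out each library or both of over 5000000 reads, and reads matching 1 member only. The comparisons of length and of untemplated ends between guides were added after seeing the data.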

Additional observations from a re-analysis of the deposited data

Results flagged for a closer look

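In 40 sets of 4 libraries (20 measures in each genotype), 4 held a library that stood apart from the other 3 by Dixon's test at the 95% level, where chance gives about 1 in 20, or 2. The log2 ratio of miR-181d-5p over miR-181a-5p was -4.17 in het replicate 1 and -4.49 in the nearest het library. The log2 ratio of miR-181c-3p over miR-181c-5p was -4.49 in ko replicate 4 and -3.21 in the nearest ko library. The share of reads with a shifted 5′ end in ko replicate 1 was 2.75% for miR-181a-5p, against 2.01% in the next ko library, and 2.96% for miR-181b-5p, against 2.58%.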

How the results depend on the processing

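Under all alternatives run, 0 members and 0 family reads were called, also when each library was left out in turn (0 to 0). Likewise 0 ratios and 0 shape measures passed, which says nothing of stability in any setting. Without both deep libraries (smallest possible p 0.0667) or with the replicate block (0.125) the exact tests cannot pass, and with all libraries or without 1 (0.0286) a single measure cannot pass after adjustment (0.171 over 6 ratios, 0.229 over 8 shape measures). The signs of small differences were less stable. The log2 fold changes of miR-181a-5p and miR-181b-5p turned to 0.10 and 0.13 under median centring, 0.033 and 0.038 by edgeR, and 0.044 and 0.049 by DESeq2, which rescale each library, and stayed below 0 when single libraries were left out (-0.25 to -0.05 and -0.13 to -0.04). Without both libraries of over 5000000 reads, miR-181b-5p over miR-181a-5p became -0.028, miR-181d-5p over miR-181a-5p -0.44 and the shifted share of miR-181c-5p -0.27 percentage points. Among reads of at least 10 CPM the shifted share of miR-181b-5p became 0.017, and miR-181c-5p and miR-181d-5p had no shifted read left to give a value. Leaving out single libraries gave ranges of -0.12 to 0.27 for miR-181a-1-3p (below 0 without het replicate 2), and, as log2 ratios, -0.023 to 0.12 for miR-181b-5p over miR-181a-5p (below 0 without het replicate 2, ko replicate 2 or ko replicate 3), -0.20 to 0.066 for miR-181d-5p over miR-181c-5p (above 0 without het replicate 1 or ko replicate 4), -0.0075 to 0.42 for miR-181a-1-3p over miR-181a-5p (below 0 without het replicate 2) and -0.32 to 0.21 for miR-181c-3p over miR-181c-5p (above 0 without het replicate 1 or ko replicate 4). The mean length of miR-181a-5p ranged from -0.12 to 0.066 nt (below 0 without het replicate 2, het replicate 3 or ko replicate 4), and the shifted shares from -0.39 to 0.28 for miR-181b-5p (above 0 without het replicate 1) and -0.23 to 0.31 percentage points for miR-181c-5p (below 0 without het replicate 2, ko replicate 1 or ko replicate 3). The fold change of miR-181c-5p ranged from -0.53 (without ko replicate 4) to -0.14 (without ko replicate 3), that of miR-181d-5p from -0.46 to -0.22 (without ko replicate 3) and that of miR-181c-3p from -0.65 (without het replicate 2) to -0.25 (without het replicate 1). The cause of these turns was not tested, and none of these values passed a test in any setting. The order of levels gave 0 pairs in het alone and 0 in ko alone, as 4 libraries cannot pass. The 6 length pairs and 2 untemplated pairs that passed were as many without both deep libraries. The other alternatives, 250 for single members, ratios and shapes and 78 for the main comparisons, kept the direction and the side of the threshold, where a test could pass.

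Replicate numbers occur in both genotypes, but same-numbered libraries were not from the same mouse and their deviations correlated at 0.038, 0.29, -0.18 and 0.25, so the numbers do not pair them. Over all sequences, 16 were called, against 35 and 5 with a mean of at least 1 and 100 CPM, 27 by DESeq2 and 9 without both deep libraries. With the replicate block, 26 sequences and 10 miRNAs were called in place of 16 and 6, and 0 members, with log2 fold changes of -0.13 for miR-181a-5p and -0.37 for miR-181d-5p.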

Other observations

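Reads that carried the name of a miR-181 hairpin but no mature name, 308 sequences in all, were at 247.1, 235.9, 266.7 and 202.0 CPM in het and 226.0, 177.5, 190.4 and 220.5 CPM in ko. They were not counted as members above. In the seed viability values they were part of all other reads.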
